A study of Mus musculus with 2 samples.

Results

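Rsad2, Psmb8 and Ifitm6 were the 3 genes of a 379-gene panel taken here as interferon-linked, and all 3 were found by name in both sections. They were taken by name, by a rule that uses no measured value, but with earlier results of these data known. The measurements came from dorsal skin of C57BL/6 mice, read in place with Xenium In Situ, which images the transcripts of a fixed set of genes 1 by 1 within the tissue. In both groups the skin had been shaved and depilated, and it was taken at day 7 and cut at 5 µm from formalin-fixed, paraffin-embedded blocks. The SspA+HDM skin had received SspA and HDM on its surface, and the Mock skin had received PBS in the same way. SspA is the name of a secreted Staphylococcus aureus protease and HDM is the usual abbreviation of house dust mite; the labels give the abbreviations only, and no age, sex or number of animals. Each treatment had 1 sample, so the differences below have no test and no replicate check, and every interval is a 95% interval that covers counting error only.

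Interferons bind receptors on most cells and act through STAT transcription factors, which switch on a large set of antiviral and antigen presentation genes. Type I interferons act mainly through the interferon-stimulated response element, and interferon gamma mainly through the gamma-activated site. Rsad2 encodes viperin, an antiviral radical SAM enzyme that is induced strongly by type I interferon. Psmb8 encodes LMP7, a catalytic subunit of the immunoproteasome, the form of the proteasome that cuts peptides for MHC class I; it is induced by interferon gamma and is present without induction in many leukocytes. Ifitm6 belongs to the interferon-induced transmembrane family, whose better known members block the entry of viruses into cells; less is known of its own role. The panel carried little else of this system: of 68 other interferon and antigen presentation genes listed for comparison, 1 was on it, the exonuclease gene Isg20. Epsti1, another interferon-induced gene, was on the panel too and was picked after the panel had been seen.

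The promoters are shown because interferon responses are read through short elements near gene starts, and the 3 windows differ in which they hold. The 250 bases before each annotated start are given 5′ to 3′ on the gene's strand, from RefSeq on GRCm38.p6, with matches to 2 motifs in capitals. The motifs were GAAA and GAAA with 2 bases of any kind between them, the core of the interferon-stimulated response element, and TTCNNNGAA, the gamma-activated site, each searched on both strands. All 3 genes had a window, at chr12:26456453-26456702 on the minus strand for Rsad2, chr17:34197945-34198194 on the plus strand for Psmb8 and chr7:141016893-141017142 on the minus strand for Ifitm6, and no other annotated gene overlapped any of them.
Rsad2: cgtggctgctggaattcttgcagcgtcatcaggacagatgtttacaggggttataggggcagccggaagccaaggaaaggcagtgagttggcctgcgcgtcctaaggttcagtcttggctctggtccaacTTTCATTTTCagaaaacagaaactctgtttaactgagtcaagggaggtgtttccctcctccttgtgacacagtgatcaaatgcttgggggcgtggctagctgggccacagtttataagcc
Psmb8: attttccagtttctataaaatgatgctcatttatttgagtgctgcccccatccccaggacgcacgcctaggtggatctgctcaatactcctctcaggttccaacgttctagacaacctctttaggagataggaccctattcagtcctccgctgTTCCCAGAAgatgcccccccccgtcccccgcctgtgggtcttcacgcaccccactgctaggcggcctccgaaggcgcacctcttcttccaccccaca
Ifitm6: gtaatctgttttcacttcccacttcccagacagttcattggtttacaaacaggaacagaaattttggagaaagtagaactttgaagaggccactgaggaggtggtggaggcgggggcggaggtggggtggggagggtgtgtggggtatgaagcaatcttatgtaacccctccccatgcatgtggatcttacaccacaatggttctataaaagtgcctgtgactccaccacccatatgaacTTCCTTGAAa
The Rsad2 window held 1 match to the response element core, on the opposite strand, from 120 to 111 bases before the start, and no gamma-activated site. The Psmb8 window held 1 gamma-activated site from 97 to 89 bases before the start, and the Ifitm6 window held 1 from 10 to 2 bases before it; neither held the response element core. Of 32817 windows of the same length, 2.97% held the response element core and 7.01% held the gamma-activated site, so a match to either is not rare over the genome, and a match is only a run of letters.

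The SspA+HDM section held 8124205 transcripts of panel genes at or above a quality score of 20, and the Mock section held 2461475. Segmented cells numbered 46142 in SspA+HDM, with a median of 121 transcripts, and 15932 in Mock, with a median of 103. No cell identifier was shared by both. Each section lay in 2 strips of skin, 7.44 and 7.48 mm long in SspA+HDM and 6.91 and 6.90 mm long in Mock; they are parts of a section and may be neighbouring cuts of 1 specimen, so they are given side by side and not as replicates. Levels are in CPM, the gene's transcripts scaled to all panel transcripts in the same cells, and a ratio is SspA+HDM over Mock. Cells were grouped into 28 clusters without the 3 genes, and clusters were named "-like" from marker lists. Epithelium here is the keratinocyte-like and hair-follicle-like clusters with related ones, stroma is fibroblast-like, adipocyte-like, muscle-like, endothelium-like and mural-like clusters and 1 led by Kcna1 and Gatm, and leukocytes are 1 macrophage-or-monocyte-like cluster.

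Over the whole section the 3 genes did not move together: Rsad2 was slightly higher in SspA+HDM, Psmb8 was level, and Ifitm6 was much lower. Of the 3, Ifitm6 alone was lower by 2-fold or more, as were 12.7% of the 346 panel genes that reached 100 transcripts in either section. None of the 3 was higher by 2-fold or more, against 14.7% of those genes. The median gene of the 346 had a log2 ratio of 0.05.

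For Rsad2 the 2 SspA+HDM strips held 1037 and 1181 transcripts in cells, or 289 and 272 CPM, against 232 and 253 transcripts, or 210 and 207 CPM, in the Mock strips. Both SspA+HDM strips lay above both Mock strips. The section level was 280 CPM in SspA+HDM and 209 in Mock, a ratio of 1.34 (1.22 to 1.48). Summed over all cells, the difference lay in the right part of the strips, with 315 CPM in SspA+HDM and 181 in Mock (ratio 1.74, 1.51 to 2.01). In the left part the levels were 228 and 239 CPM (ratio 0.953, 0.827 to 1.10), though stroma alone differed there too, as given below. The parts of the 2 sections are not known to be matched places. Counting only transcripts over a nucleus the section ratio was 1.06. It was 1.16 without the SspA+HDM millimetre of highest Rsad2 described below, with Mock kept whole.

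For Psmb8 the SspA+HDM strips held 4874 and 5877 transcripts, or 1359 and 1353 CPM, against 1538 and 1705 transcripts, or 1394 and 1396 CPM, in the Mock strips. The section ratio was 0.972 (0.935 to 1.01). The 4 strips lay within a few percent of each other, but the parts of the strips did not. In the right part Psmb8 stood at 1275 CPM in SspA+HDM and 1493 in Mock (ratio 0.854, 0.810 to 0.901), and in the left part at 1474 and 1287 CPM (ratio 1.15, 1.08 to 1.22). Epithelium and stroma also differed in opposite directions.

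For Ifitm6 the SspA+HDM strips held 281 and 433 transcripts, or 78.4 and 99.7 CPM, against 398 and 520 transcripts, or 361 and 426 CPM, in the Mock strips. The section level was 90.0 CPM in SspA+HDM and 395 CPM in Mock, a ratio of 0.228 (0.207 to 0.252), and 6 of the 346 genes had a lower ratio. Both Mock strips lay far above both SspA+HDM strips.

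**Figure D1:**
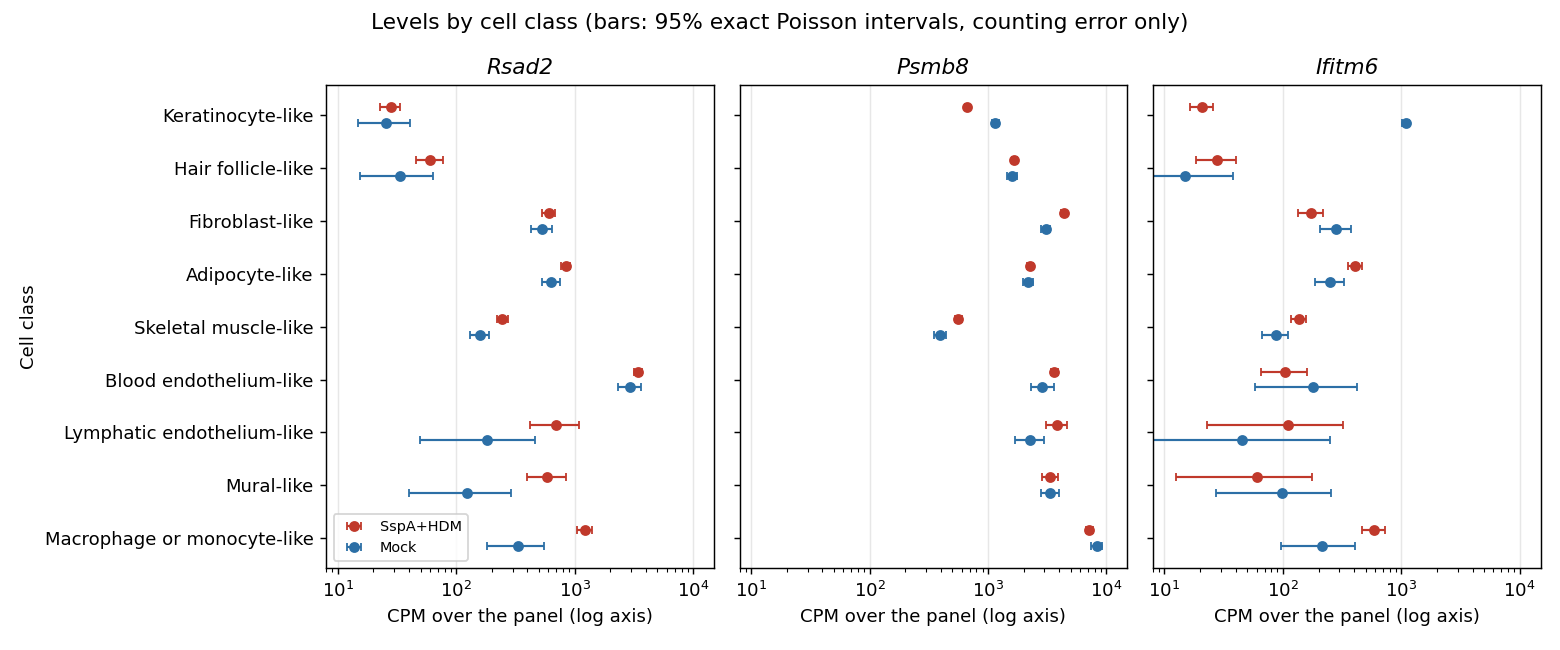
Levels of the 3 genes in CPM over the panel (log axis) in 9 cell classes, SspA+HDM above Mock in each row, with 95% exact Poisson intervals. Rsad2 was highest in blood-endothelium-like cells (3437 CPM in SspA+HDM and 2926 in Mock), Psmb8 in macrophage-or-monocyte-like cells (7194 and 8305), and Ifitm6 in Mock keratinocyte-like cells (1089, against 20.8 in SspA+HDM).

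Rsad2 had its highest level in blood vessels in both sections. The blood-endothelium-like cluster, led by Vwf and Plvap, which mark blood vessel lining, held 720 of 2218 Rsad2 transcripts in SspA+HDM, 32.5% (30.5 to 34.5), and 81 of 485 in Mock, 16.7% (13.5 to 20.3; exact Clopper-Pearson intervals). By share of transcripts other classes came first in Mock: adipocyte-like cells held 20.6% in SspA+HDM and 27.0% in Mock, and skeletal-muscle-like cells 14.3% and 23.7%. The endothelium-like level was 3704 and 3230 CPM in the SspA+HDM strips, against 2635 and 3166 CPM in the Mock strips. Both SspA+HDM strips were above both Mock strips, strip 2 of each by little. The ratio was 1.17 (0.933 to 1.497), an interval that holds 1. Of 163 genes with enough transcripts in this cluster, 15.3% passed 2-fold in the direction of SspA+HDM, and Rsad2 was not among them.

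More endothelium-like cells lay in the SspA+HDM section, 2280 of 46142 against 398 of 15932 in Mock, so the larger Rsad2 share there went with more such cells and with more Rsad2 per cell, 31.6 transcripts per 100 cells in SspA+HDM against 20.4 in Mock. The cluster also carried Rgs5, a gene of the mural cells that wrap vessels. Cells of the cluster with more endothelial than mural marker transcripts held 4417 CPM of Rsad2 in SspA+HDM (4063 to 4793) and 3752 CPM in Mock (2802 to 4920). Those with more mural than endothelial transcripts held 1770 CPM in SspA+HDM (1479 to 2102) and 2108 CPM in Mock (1389 to 3067). In SspA+HDM Rsad2 thus lay with the endothelial transcripts. In Mock the direction was the same, but the intervals overlapped, on 52 and 27 transcripts.

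In Mock the vessel level of Rsad2 was uneven along the strips. The endothelium-like cells of the right part of the Mock strips held 1551 CPM and those of the left part 4243 CPM, a ratio of right to left of 0.365 (0.211 to 0.610). In SspA+HDM the same parts held 3338 and 3639 CPM, a ratio of 0.917 (0.785 to 1.07).

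Outside the blood-endothelium-like cluster some relative differences in Rsad2 were larger. In macrophage-or-monocyte-like cells, led by Ms4a6c and Mpeg1, the SspA+HDM strips held 89 and 84 transcripts, or 1364 and 1098 CPM, against 9 and 5 transcripts, or 425 and 237 CPM, in the Mock strips. The ratio was 3.68 (2.14 to 6.88). It was 8.12 (3.09 to 30.3) in the right part of the strips, on 4 Mock transcripts, and 1.69 (0.843 to 3.73) in the left part. Of 140 genes with at least 100 transcripts in these cells of either section, 28 or 20% passed 2-fold in that direction, and 9 had a higher ratio than Rsad2. Rsad2 reached that minimum through SspA+HDM only, with 173 transcripts against 14 in Mock, which favoured its rank. In the same cells all 5 measured blood endothelium markers were also higher in SspA+HDM, with a sum of 6989 CPM against 4046 in Mock, and the part of vessel transcripts in the result was not tested.

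In stroma as a whole Rsad2 stood at 742 and 660 CPM in the SspA+HDM strips, against 345 and 355 CPM in the Mock strips. The ratio was 1.99 (1.79 to 2.21), just short of the 2-fold line that 26.6% of 271 genes passed upward and 2.95% downward in stroma, where the median gene had a log2 ratio of 0.41. The stroma of the SspA+HDM section held more vessel, with 19959 CPM of the 5 measured blood endothelium markers against 8836 in Mock, all 5 higher. Without the blood-endothelium-like cluster the ratio was 1.57 (1.39 to 1.77). Over all stroma it was 2.44 (2.10 to 2.84) in the right part of the strips and 1.54 (1.32 to 1.80) in the left part.

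Several other stromal classes carried Rsad2 at lower levels. Fibroblast-like cluster 0, led by Lum, held 529 CPM in SspA+HDM and 189 in Mock, a ratio of 2.81 (1.73 to 4.83). Fibroblast-like cluster 21, led by Retnla and C3 and named from Pi16, Igfbp6 and Mfap5, held 2045 CPM in SspA+HDM and 957 in Mock, a ratio of 2.14 (1.43 to 3.16). The 2 clusters held very different shares of the sections (5316 and 251 cells in SspA+HDM, against 1433 and 733 in Mock), so the class summed over both differed less, with a ratio of 1.15 (0.900 to 1.48). Cluster 0 also had the macrophage gene Ms4a6c and the mast cell gene Cpa3 among its leading genes.

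Adipocyte-like cells held 839 CPM of Rsad2 in SspA+HDM and 631 in Mock, a ratio of 1.33 (1.09 to 1.63), and skeletal-muscle-like cells 246 and 159 CPM, a ratio of 1.55 (1.24 to 1.93). Mural-like cells held 29 transcripts (588 CPM) in SspA+HDM and 5 (124 CPM) in Mock, and lymphatic-endothelium-like cells 19 (698 CPM) and 4 (181 CPM). With so few Mock transcripts the last 2 ratios, 4.75 and 3.86, had intervals from 1.82 to 15.7 and from 1.28 to 15.6.

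Epidermis carried little Rsad2. Keratinocyte-like cells held 27.9 CPM in SspA+HDM and 25.7 in Mock, while the highest single control feature in the same cells stood at 28.5 and 34.7 CPM, and all 160 control features seen in SspA+HDM summed to 219 CPM there. The epithelium as a whole held 187 Rsad2 transcripts in SspA+HDM and 31 in Mock, a ratio of 1.24 (0.842 to 1.87). Within the SspA+HDM epidermis Rsad2 stood at 67.7 CPM (48.2 to 92.6) in cluster 2, which carried the basal layer gene Col17a1. In keratinocyte-like cells deeper than 75 µm it stood at 54.6 CPM (40.2 to 72.3). Both values were above the 28.5 CPM of the highest control in all keratinocyte-like cells. Control levels were not taken in these sets of cells alone.

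**Figure D2:**
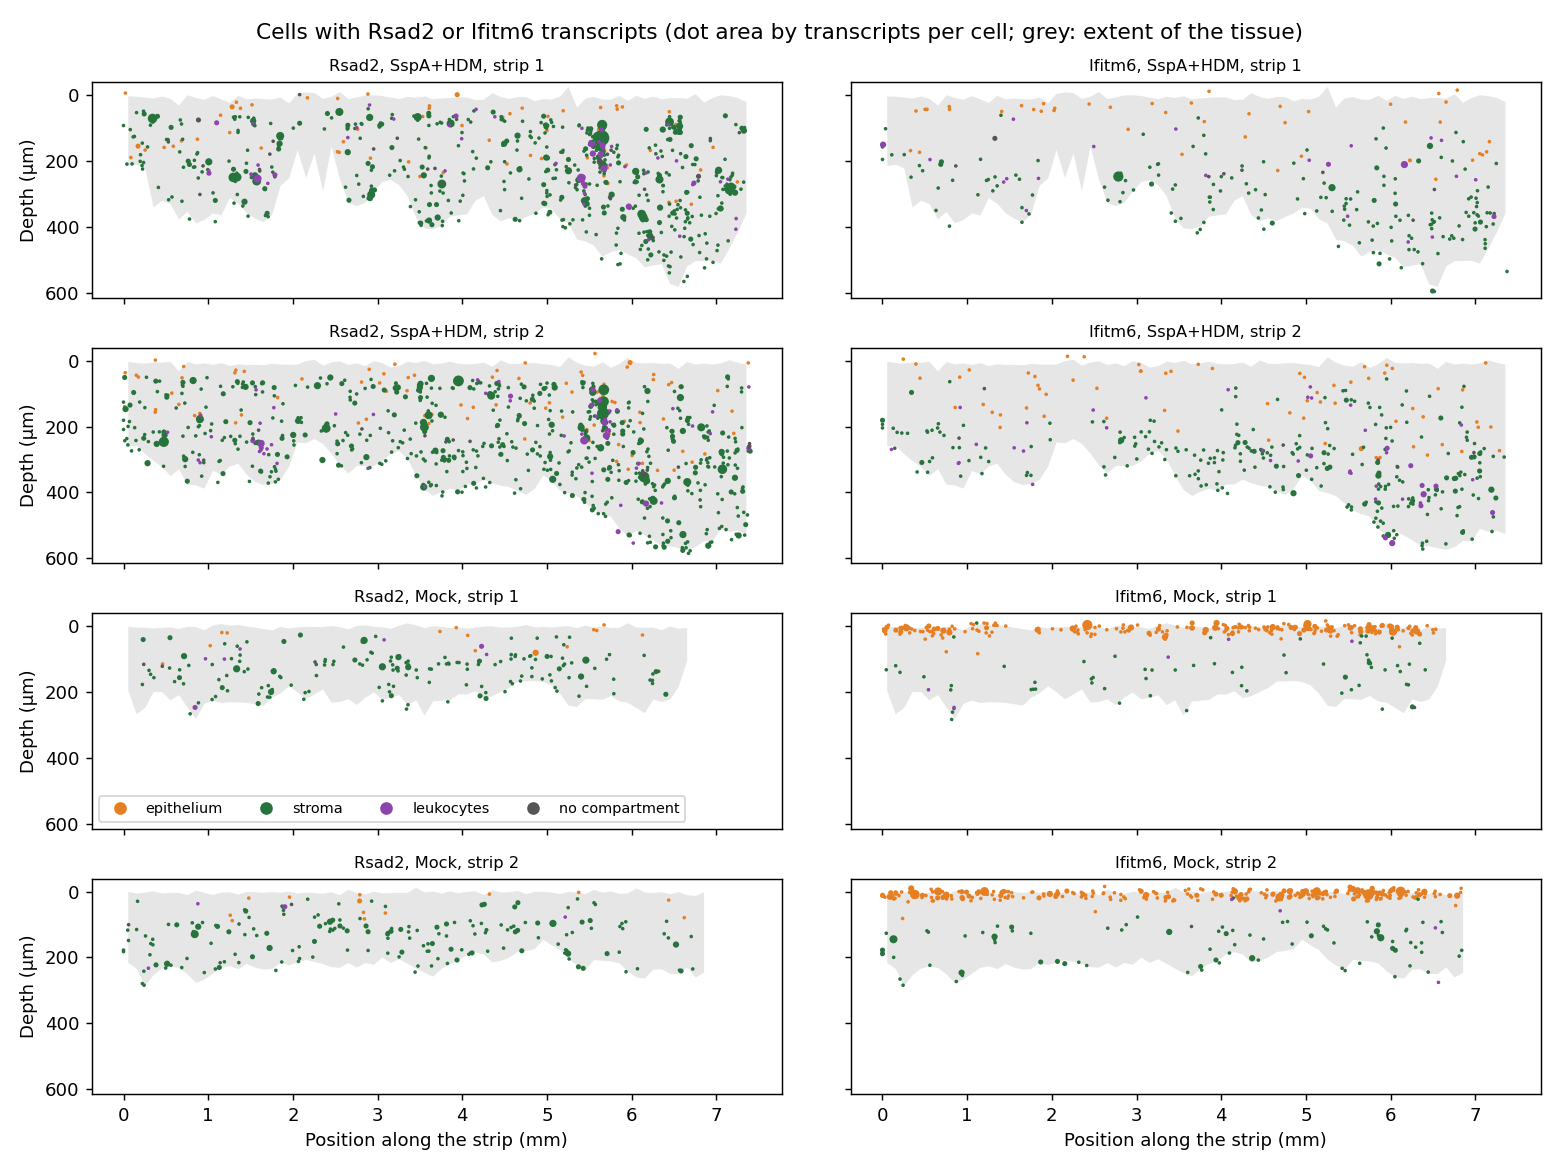
Cells with Rsad2 (left column) or Ifitm6 (right column) transcripts by position along each strip in mm and depth below the local surface in µm, SspA+HDM strips above Mock strips, coloured by compartment, with dot area in proportion to transcripts per cell and the extent of the tissue in grey. Rsad2 dots crowded between 5 and 6 mm in both SspA+HDM strips, and Ifitm6 dots lined the surface of both Mock strips.

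Most cells with Rsad2 held 1 or 2 transcripts. It was found in 1544 of 46142 cells in SspA+HDM and in 380 of 15932 in Mock. Cells with at least 3 Rsad2 transcripts numbered 137 in SspA+HDM and 19 in Mock, and cells with at least 5 numbered 41 in SspA+HDM and 1 in Mock. The highest cell held 19 transcripts in SspA+HDM and 5 in Mock. Of the 137 cells, 61 were blood-endothelium-like, 31 adipocyte-like, 12 macrophage-or-monocyte-like and none keratinocyte-like; of the 19 in Mock, 5 were endothelium-like and 6 adipocyte-like.

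The rich cells lay near each other. In SspA+HDM 65 of the 137, or 47.4% (38.9 to 56.1, Clopper-Pearson), had another rich cell within 50 µm, against 13.9% of the cells that were not rich and 20.9% of the endothelium-like cells that were not rich. In Mock 2 of 19 rich cells had another within 50 µm, or 10.5% (1.30 to 33.1), against 4.73% of the cells that were not rich. Nearness is mutual, so the cells are not independent and these intervals may be too narrow.

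Along the strips, Rsad2 peaked at the same place in both SspA+HDM strips. In 1-mm bins the highest value lay between 5 and 6 mm in each, at 512 CPM in strip 1 and 446 CPM in strip 2, where the median bins held 255 and 257 CPM. In Mock the highest bins held 288 CPM in strip 1 (1 to 2 mm) and 306 CPM in strip 2 (2 to 3 mm), with medians of 190 and 228. The share of endothelium-like cells in the SspA+HDM peak bins was 5.41% and 5.53%, close to the medians of 4.50% and 5.24% over the bins.

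**Figure D3:**
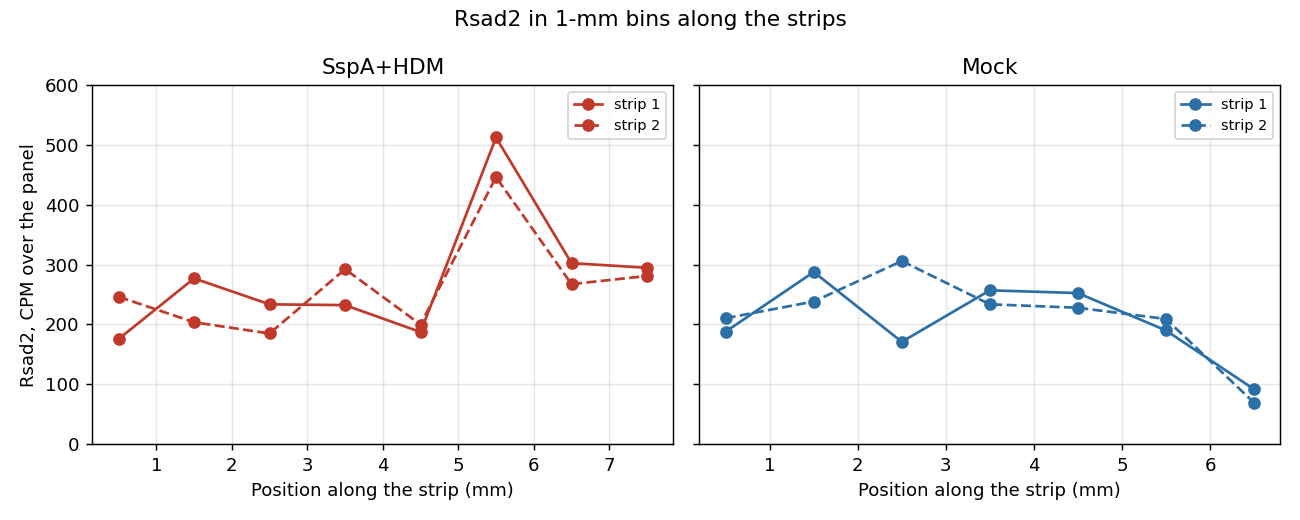
Rsad2 level (CPM over the panel) in 1-mm bins along each strip, SspA+HDM left and Mock right, with solid lines for strip 1 and dashed lines for strip 2. Both SspA+HDM strips peaked between 5 and 6 mm, at 512 and 446 CPM, above every Mock bin.

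This millimetre was picked for its Rsad2 level, so its values are a description. Rsad2 was higher there than in the rest of the SspA+HDM strips in several cell types. Macrophage-or-monocyte-like cells of the bin held 4247 CPM, against 743 CPM elsewhere in SspA+HDM, and did so in each strip (5495 against 756 CPM in strip 1 and 3292 against 732 CPM in strip 2). Blood-endothelium-like cells held 4947 CPM in the bin and 3098 CPM elsewhere, fibroblast-like cells 1413 and 428 CPM, and epithelium 86.5 and 28.1 CPM. Psmb8 did not share the peak, with 1321 CPM in the bin and 1363 CPM elsewhere. Ifitm6 shared it in part, with 120 CPM in the bin and 84.3 elsewhere, and with 1191 and 490 CPM in macrophage-or-monocyte-like cells. Its highest bin lay there in strip 2 (155 CPM) but at 7 to 8 mm in strip 1 (114 CPM).

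The bin held 7236 of the 46142 SspA+HDM cells, 601 of the 2218 Rsad2 transcripts and 41 of the 137 rich cells. Of 334 panel genes with at least 100 transcripts in the bin or elsewhere, Rsad2 had the highest ratio of bin to elsewhere. The choice of the bin by its Rsad2 level favoured that rank. The bin was then left out of SspA+HDM only, with Mock kept whole, so the ratios that follow lean low. Without the bin, the Rsad2 ratio to Mock was 2.24 (1.27 to 4.26) in macrophage-or-monocyte-like cells, against 3.68 with it. In stroma it was 1.81 (1.62 to 2.02), against 1.99. In fibroblast-like cells it was 0.812 (0.620 to 1.07) without the bin, against 1.15 with it.

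Psmb8 was found in every compartment and was highest, per panel transcript, in macrophage-or-monocyte-like cells. There the SspA+HDM strips held 7371 and 7043 CPM, against 8679 and 7929 CPM in the Mock strips. The ratio was 0.866 (0.767 to 0.981), where 7.86% of the genes measured were lower by 2-fold or more. The interval held 1 with a quality score of at least 30 (0.894, 0.775 to 1.03), with nuclear transcripts only (0.933, 0.750 to 1.17), with cells assigned 1 by 1 (0.984, 0.912 to 1.06) and in each strip pair alone. Per 100 cells there were 50.9 Psmb8 transcripts in SspA+HDM and 60.8 in Mock.

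In stroma Psmb8 was higher in SspA+HDM. The strips held 1908 and 1919 CPM in SspA+HDM, against 1269 and 1326 CPM in Mock, and did not overlap. The ratio was 1.47 (1.39 to 1.56), or 0.56 on the log2 scale where the median of all genes in stroma was 0.41. Fibroblast-like cells held 4369 CPM in SspA+HDM and 3089 in Mock, a ratio of 1.41 (1.28 to 1.56). Within their 2 clusters the ratio was lower, at 1.15 (1.03 to 1.29) in cluster 0 and 1.32 (0.960 to 1.80) in cluster 21. These clusters held different shares of the sections, as given above for Rsad2. Lymphatic-endothelium-like cells held 3822 and 2264 CPM, a ratio of 1.69 (1.19 to 2.42), and blood-endothelium-like cells 3642 and 2890 CPM, a ratio of 1.26 with an interval that begins at 1. Adipocyte-like cells (2267 and 2190 CPM) and mural-like cells (3368 and 3370 CPM) differed by less than their counting error.

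In epithelium the direction was the opposite. The SspA+HDM strips held 897 and 855 CPM of Psmb8, against 1221 and 1220 CPM in the Mock strips. The ratio was 0.716 (0.672 to 0.763), or -0.48 on the log2 scale where the median of all epithelial genes was -0.32. It lay in the right part of the strips, with 715 CPM in SspA+HDM and 1358 in Mock (ratio 0.527, 0.484 to 0.574); in the left part the levels were 1093 and 1073 CPM (ratio 1.02, 0.927 to 1.12). Keratinocyte-like cells held 664 CPM in SspA+HDM and 1156 in Mock (ratio 0.575, 0.530 to 0.624). Their log2 ratio was -0.80, where the median gene of these cells had -0.60. In their cluster 5, filled in both sections, Psmb8 stood at 703 and 1524 CPM (ratio 0.461, 0.357 to 0.603). Hair-follicle-like cells held 1664 and 1593 CPM (ratio 1.04, 0.939 to 1.16), but their clusters went both ways. Cluster 10 was lower (ratio 0.761, 0.649 to 0.896) and cluster 4 was higher (ratio 1.65, 1.21 to 2.30). Counted per 100 cells, epithelial cells held 19.0 Psmb8 transcripts in SspA+HDM and 18.0 in Mock, since each held more panel transcripts in SspA+HDM, so the lower level is one relative to the rest of the panel.

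Within the SspA+HDM epidermis Psmb8 followed the layers. Cluster 2, which carried the basal layer gene Col17a1, held 2978 CPM. Cluster 6 held 547 CPM, cluster 12 held 80.6 CPM, and clusters 16 and 19, which carried the cornified envelope gene Cnfn, held 39.6 and 37.8 CPM. In Mock the main keratinocyte-like cluster 11 held 1419 CPM and cluster 23, led by the late cornified envelope gene Lce1m, held 266 CPM. Clusters 2, 6, 12, 16 and 19 lay almost wholly in SspA+HDM and clusters 11 and 23 in Mock, so keratinocyte-like cells were also compared by depth.

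Depth was measured from the local surface of the epithelium. In keratinocyte-like cells of the outermost 10 µm Psmb8 stood at 21.5 CPM in SspA+HDM (12 transcripts) and 760 CPM in Mock (188). From 10 to 20 µm it stood at 70.3 and 1245 CPM, from 20 to 30 µm at 191 and 1382 CPM, from 30 to 50 µm at 755 and 1726 CPM, and from 50 to 75 µm at 1248 and 2287 CPM. In both sections it was lowest at the surface and higher in each deeper layer to 75 µm, and the measured gap between the sections was widest at the surface. The SspA+HDM surface value was below the highest single control feature of all keratinocyte-like cells there, 28.5 CPM. The size of the surface gap is thus uncertain, and how much of that value was background was not tested. The epidermis was thicker in SspA+HDM, so the same depth is not the same layer; from 30 to 50 µm there were 2952 keratinocyte-like cells in SspA+HDM and 430 in Mock.

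**Figure D4:**
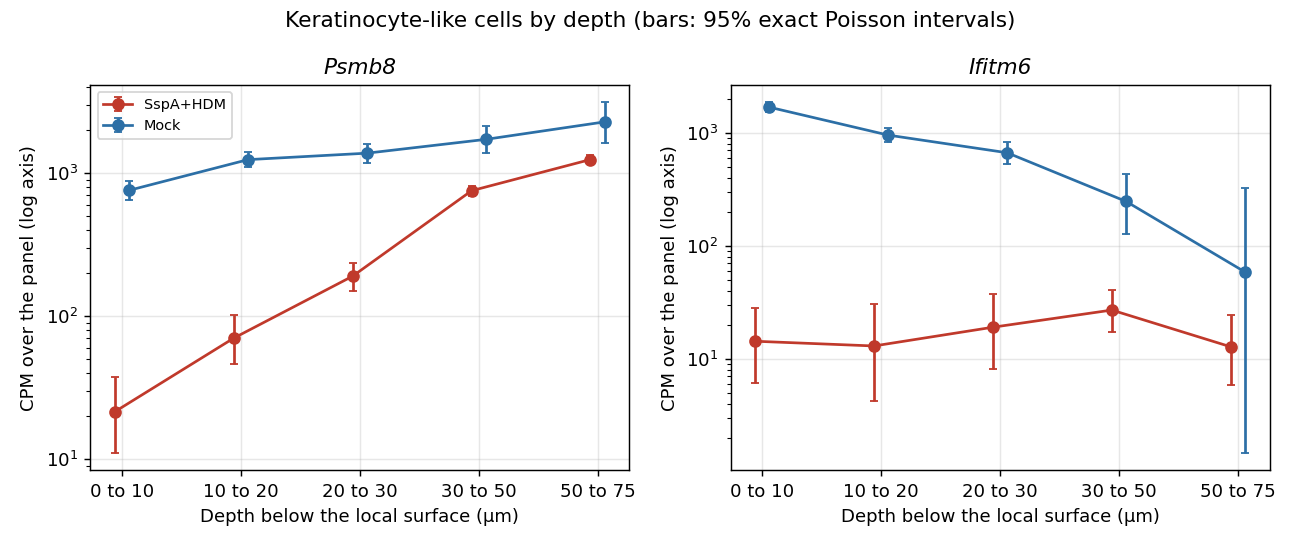
Psmb8 (left) and Ifitm6 (right) in keratinocyte-like cells by depth below the local surface (µm), in CPM over the panel on a log axis, for SspA+HDM (red) and Mock (blue), with 95% exact Poisson intervals. In Mock, Ifitm6 was highest in the outermost 10 µm (1677 CPM) and Psmb8 lowest there (760 CPM), and Ifitm6 stayed between 12.8 and 27.04 CPM at these depths in SspA+HDM.

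Ifitm6 had its main site in the Mock epidermis, and in SspA+HDM it was below the highest single control feature there. Keratinocyte-like cells held 79 of 714 Ifitm6 transcripts in SspA+HDM, 11.1% (8.86 to 13.6), and 722 of 918 in Mock, 78.6% (75.9 to 81.3; Clopper-Pearson). The strips held 20.2 and 21.4 CPM in SspA+HDM, against 1019 and 1155 CPM in Mock. The measured ratio was 0.0191 (0.0150 to 0.0241), among 215 genes of which 40.5% were lower by 2-fold or more. The clusters that made up these cells differed between the sections: most of Mock lay in clusters 11 and 23, which held 31 and 6 SspA+HDM cells. In cluster 5, filled in both (2393 cells in SspA+HDM and 468 in Mock), Ifitm6 had 15 and 2 transcripts, or 34.8 and 41.2 CPM, a ratio of 0.845 (0.197 to 7.62).

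The SspA+HDM level was below the highest single control feature, so the size of the measured ratio is uncertain beyond its counting interval. How much of the level was background was not tested. The highest single control feature in the SspA+HDM keratinocyte-like cells stood at 28.5 CPM, above the 20.8 CPM of Ifitm6. The 160 control features summed to 219 CPM there, so Ifitm6 stood above most of them. In the Mock cells the highest stood at 34.7 CPM, far below the 1089 CPM of Ifitm6. The decoded quality also differed: 39.5% of Ifitm6 transcripts in SspA+HDM keratinocyte-like cells (32.7 to 46.6) and 72.0% in Mock (69.1 to 74.7) reached a quality score of 20. In the epithelium as a whole Ifitm6 stood at 22.1 CPM in SspA+HDM and 706 in Mock, a ratio of 0.0313 (0.0254 to 0.0383). Of 285 genes there, 23.9% were lower by 2-fold or more and 11.2% higher. The epithelial Ifitm6 ratio moved both ways with the setting. It was 0.0756 (0.0560 to 0.101) with nuclear transcripts only and 0.0184 (0.0129 to 0.0256) with a quality score of at least 30.

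In the Mock epidermis Ifitm6 lay at the surface, the reverse of Psmb8. Keratinocyte-like cells of the outermost 10 µm held 14.3 CPM in SspA+HDM and 1677 in Mock. From 10 to 20 µm the values were 13.03 and 950 CPM, from 20 to 30 µm 19.1 and 663 CPM, from 30 to 50 µm 27.04 and 247 CPM, and from 50 to 75 µm 12.8 and 58.6 CPM. The Mock cluster 23, led by Lce1m, held 1954 CPM (309 transcripts) and cluster 11 held 926 CPM (410 transcripts). Hair-follicle-like cells held 28 transcripts in SspA+HDM and 4 in Mock, or 27.8 and 14.9 CPM.

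Markers of other cell types were measured in the same cells. In the keratinocyte-like cells the 7 measured macrophage markers summed to 479 CPM in SspA+HDM and 575 in Mock, with 3 of 7 higher in SspA+HDM. The 5 granulocyte markers summed to 3584 and 5057 CPM, with 2 of 5 higher. Larger moves were seen for the sums of the 10 fibroblast markers (1760 and 5825 CPM, 1 of 10 higher) and the 4 mural markers (289 and 773 CPM, 1 of 4 higher). The mural marker Rgs5 went the other way, at 196 and 81.5 CPM. The 2 mast cell markers (103 and 367 CPM), the 4 skeletal muscle markers (446 and 1495 CPM) and the 4 adipocyte markers (316 and 934 CPM) had no member higher. All these sums were lower in SspA+HDM like Ifitm6 and Psmb8, and their part in those results was not tested. Epithelial outlines in Mock with no transcript of 18 leukocyte markers still held 260 Ifitm6 transcripts, or 450 CPM, against 53 transcripts, or 22.1 CPM, in such SspA+HDM outlines. Mock outlines with at least 3 leukocyte marker transcripts held 1156 CPM, against 21.5 CPM in SspA+HDM. In Mock the level was thus higher where more leukocyte marker transcripts lay, and their part in it was not tested. The 18 markers included Mmp9, Ltc4s and C5ar1, which were among the 5 genes most like Ifitm6. In keratinocyte-like cells Mmp9 stood at 84.3 CPM in SspA+HDM and 996 in Mock, and Ltc4s at 33.5 and 264 CPM. C5ar1 stood at 26.4 and 25.7 CPM. The marker count does not tell leukocyte transcripts apart from such genes.

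In stroma as a whole Ifitm6 was not lower, though its classes differed in direction. In stroma the SspA+HDM strips held 176 and 207 CPM, against 112 and 176 CPM in the Mock strips, so that strip 1 of SspA+HDM and strip 2 of Mock were level. The ratio was 1.33 (1.12 to 1.59), which on the log2 scale is 0.41, the same as the median of all stromal genes. Adipocyte-like cells held 405 CPM in SspA+HDM and 250 in Mock (ratio 1.62, 1.19 to 2.23) and skeletal-muscle-like cells 136 and 87.1 CPM (ratio 1.56, 1.16 to 2.11). Fibroblast-like cells went the other way, with 173 and 281 CPM (ratio 0.615, 0.421 to 0.906), while within their 2 clusters Ifitm6 stood at 149 and 105 CPM in cluster 0 and at 618 and 505 CPM in cluster 21. Blood-endothelium-like cells held 22 transcripts in SspA+HDM and 5 in Mock, or 105 and 181 CPM.

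In macrophage-or-monocyte-like cells Ifitm6 had 29 and 54 transcripts in the SspA+HDM strips, or 444 and 706 CPM, against 5 and 4 transcripts, or 236 and 190 CPM, in the Mock strips. The ratio was 2.75 (1.38 to 6.22), on 9 Mock transcripts. When cells were assigned one by one from their marker transcripts, which put more cells among the leukocytes (6612 in SspA+HDM and 1853 in Mock), the ratio was 1.03.

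Within stroma Ifitm6 went with leukocyte marker transcripts, and at the same number of them the intervals of the sections overlapped. The 18 markers again included Mmp9, Ltc4s and C5ar1, which were among the genes most like Ifitm6. Outlines with no transcript of the 18 leukocyte markers held 58.2 CPM of Ifitm6 in SspA+HDM (43.6 to 76.2) and 62.5 CPM in Mock (44.2 to 85.8). Outlines with 1 or 2 held 123 and 111 CPM, and outlines with 3 or more held 385 and 376 CPM. Outlines with 3 or more made up 5594 of 17691 stromal cells in SspA+HDM and 1676 of 7710 in Mock, and the 7 macrophage markers summed to 11939 CPM in SspA+HDM stroma and 4894 in Mock stroma, 6 of the 7 higher.

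Rsad2 behaved differently in the same outlines. With no leukocyte marker transcript it held 639 CPM in SspA+HDM (588 to 693) and 309 CPM in Mock (267 to 357), and with 3 or more it held 725 and 369 CPM. The difference between the sections was thus present at every number of leukocyte transcripts. Psmb8 lay between, with 1246 and 793 CPM at none, 1837 and 1397 CPM at 1 or 2, and 2634 and 2296 CPM at 3 or more.

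**Figure D5:**
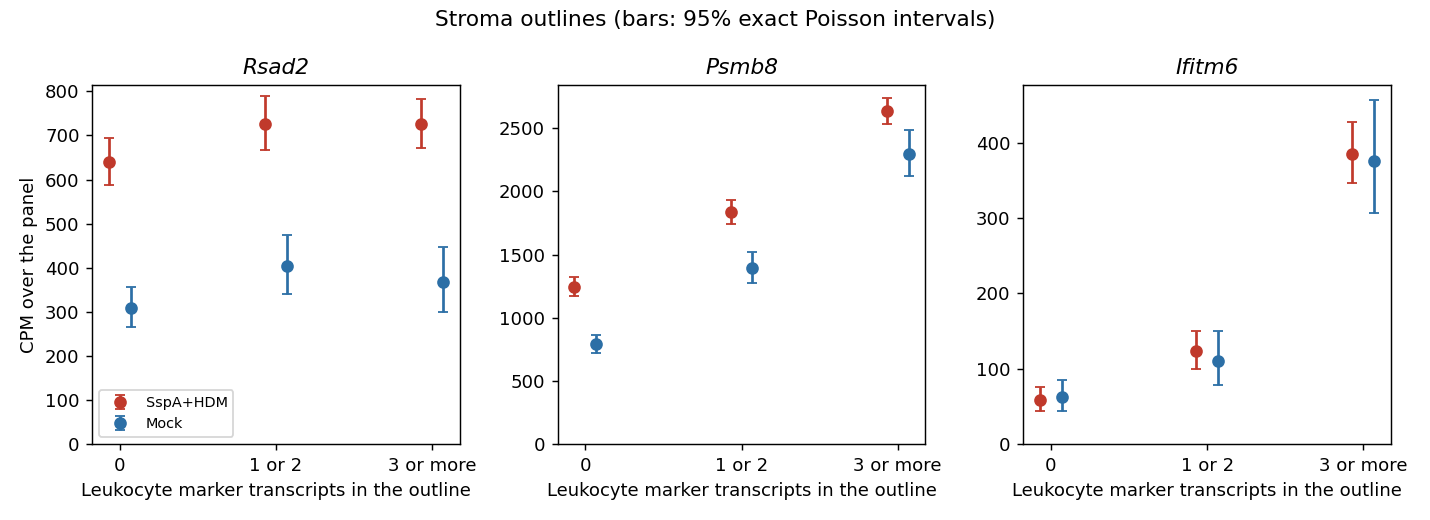
Levels of the 3 genes (CPM over the panel) in stromal outlines by the number of leukocyte marker transcripts in the same outline, SspA+HDM (red) left of Mock (blue), with 95% exact Poisson intervals. Ifitm6 climbed with leukocyte transcripts to 385 CPM in SspA+HDM and 376 in Mock, while Rsad2 stayed higher in SspA+HDM in all 3 bins.

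The 3 genes also differed in where in the cell their transcripts lay. Over a nucleus lay 49.6% of Rsad2 transcripts in SspA+HDM cells (47.5 to 51.7) and 51.3% in Mock cells (46.8 to 55.9), and 39.4% (38.4 to 40.3) and 34.1% (32.4 to 35.7) of those of Psmb8. For Ifitm6 the shares were 43.3% (39.6 to 47.0) in SspA+HDM and 26.0% (23.2 to 29.0) in Mock. Of all panel transcripts of the sections, 30.9% in SspA+HDM and 24.4% in Mock lay over a nucleus.

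Across 46 profiles, each a cluster within a section with at least 50 cells, the correlation of log2 levels was 0.51 between Rsad2 and Psmb8, 0.46 between Rsad2 and Ifitm6, and 0.33 between Psmb8 and Ifitm6. These are descriptions over clusters that share a section and its depth. Among the genes most like Rsad2 were Tmem100 (0.85), Rgs5, Plvap and Ccn3, of which Plvap and Rgs5 are vessel genes. Those most like Psmb8 were Nbl1 (0.87), S100a4, Lum, Cyp4b1 and Rac2. Those most like Ifitm6 were Mmp9 (0.67), Ltc4s, Sod3, C5ar1 and Mettl7a2. In keratinocyte-like cells Mmp9, which encodes a gelatinase, stood at 84.3 CPM in SspA+HDM and 996 in Mock, Sod3, an extracellular superoxide dismutase, at 18.4 and 293 CPM, and Ltc4s, leukotriene C4 synthase, at 33.5 and 264 CPM.

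Isg20, the 1 gene of the interferon list on the panel, was lower over the SspA+HDM section. Over the section it stood at 128 CPM in SspA+HDM and 162 in Mock, a ratio of 0.789 (0.700 to 0.890). In keratinocyte-like cells it stood at 43.2 and 171 CPM (ratio 0.253, 0.198 to 0.325), and in stroma its ratio was 1.04 (0.879 to 1.23). It thus had lower keratinocyte levels in SspA+HDM in common with Ifitm6 and Psmb8, in cells where 40.5% of the genes were lower by 2-fold or more. Epsti1 stood at 631 CPM in SspA+HDM and 600 in Mock over the section (ratio 1.05, 0.990 to 1.12), at 1165 and 681 CPM in stroma (ratio 1.71, 1.59 to 1.85) and at 162 and 189 CPM in keratinocyte-like cells (ratio 0.859, 0.708 to 1.05).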

How the data were processed

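Transcripts were decoded and cells segmented before deposit; the sources used here do not give the software versions. The deposited tables give, per the file headers, each transcript's gene, position, cell, nucleus overlap and quality score, and each cell's position. Transcripts with a score of at least 20 inside cells were counted (Python 3.11.15, pandas 2.3.3). Intervals are exact: Poisson for levels, conditional binomial for ratios, Clopper-Pearson for shares. Neighbouring cells' and free transcripts can lie in an outline, and a CPM is relative to the panel, so more of other panel genes lowers it.

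Cells with at least 20 transcripts were clustered without the 3 genes (30 principal components, 15 neighbours, Leiden resolution 1, leidenalg 0.10.2) and named from marker lists. Clusters with at least 8% of transcripts from 4 pan-epithelial genes were epithelium; others needed at least 2 class markers among their top 10 genes and 3 detected. No doublet caller was run. Depth was measured from the 2nd percentile of epithelial positions in 50-µm bins. The members, lists and naming rule were chosen with earlier results of these data known. A gene was counted as different from 2-fold up, with at least 100 transcripts in a section. Genes named as alike are from the 5 with the highest Pearson correlation; some items are not reported here. Alternatives were the quality score, nuclear transcripts, clustering, a per-cell marker rule, denominators, and leaving out strips, clusters or a bin. The interval and count steps were tested on simulated data.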

Additional observations from a re-analysis of the deposited data

Results flagged for a closer look

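Ifitm6 and Psmb8 went in opposite directions in different compartments of the same sections, as did the median panel gene between epithelium and stroma. That median log2 ratio was -0.32 in epithelium, 0.41 in stroma and 0.15 in leukocytes. For Ifitm6 the log2 ratio of SspA+HDM to Mock was -5.00 in epithelium, 0.41 in stroma and 1.46 in leukocytes. For Psmb8 it was -0.48 in epithelium, 0.56 in stroma and -0.21 in leukocytes. Divided by cells, Psmb8 in epithelium gave 0.0828, and with the per-cell marker rule Ifitm6 in leukocytes gave 0.0470. The difference between compartments was not tested, since each treatment had 1 sample.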

How the results depend on the processing

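Over 12 log2 ratios and 86 alternatives, 11 of them chosen after seeing the data, 53 stayed within the counting interval, 33 moved beyond it, and 79 kept the sign. Where a value moved, the cause was not tested. With nuclear transcripts only, Rsad2 gave 0.0825 over the section and 0.59 in stroma, Psmb8 -0.12 over the section, and Ifitm6 -1.69 over the section and -3.73 in epithelium. With a quality score of at least 30, Rsad2 gave 3.29 in leukocytes, Psmb8 0.0900 over the section, -0.33 in epithelium and 0.66 in stroma, and Ifitm6 -5.76 in epithelium. Divided by cells, the section values were 0.66 for Rsad2, 0.19 for Psmb8 and -1.90 for Ifitm6, with Psmb8 at 0.0828 in epithelium and 0.43 in stroma and Ifitm6 at -4.43 in epithelium. Divided by strip length, they were 2.08, 1.62 and -0.47 in that order. The per-cell marker rule gave 0.83 for Rsad2 in stroma, -0.0235 for Psmb8 in leukocytes, and 0.0419 in stroma and 0.0470 in leukocytes for Ifitm6. Stromal outlines with no leukocyte marker transcript gave 0.65 for Psmb8 and -0.10 for Ifitm6. Leiden resolution 2 gave 0.21 for Psmb8 in stroma, and hair-follicle-like clusters alone gave 0.0634 for Psmb8. Rsad2 gave 0.65 in stroma without the blood-endothelium-like cluster and 0.75 in leukocytes of the left part of the strips. Over the section Rsad2 gave 0.22 without the SspA+HDM bin from 5 to 6 mm, with Mock kept whole. Ifitm6 gave -4.44 in epithelium without cluster 23, and -1.99 and -2.33 over the section without SspA+HDM strip 1 and strip 2. No paired analysis was possible because each treatment had 1 sample and the labels give no replicate numbers. Counts limit Rsad2 (14 transcripts) and Ifitm6 (9) in Mock leukocytes.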

Other observations

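After Rsad2, the panel genes with the highest ratio between 5 and 6 mm and the rest of the SspA+HDM strips were Uox (5732 CPM in the bin and 3294 elsewhere) and Cd8a, a coreceptor gene of cytotoxic T cells (212 and 106 CPM). They were named after their values were seen, and the difference was not tested.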
